A study of Mus musculus with 43 samples.

Results

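The 37 genes described here copy DNA or prepare the cell to do so, and are referred to as the replication genes. They were taken from a list of symbols, each matched to its mouse Ensembl identifier, and all 37 were found among the 37991 genes of the count table. By role, 9 genes license or restrain origins (Mcm2 to Mcm7, Cdc6, Cdt1, Gmnn), 4 activate the helicase (Cdc45, Gins1, Gins2, Mcm10), and 4 belong to the polymerases (Pola1, Prim1, Pold1, Pole). A further 7 act at the sliding clamp and on the lagging strand (Pcna, Rfc3, Rfc4, Rfc5, Rpa2, Lig1, Fen1), 6 supply nucleotides or keep uracil out of DNA (Rrm1, Rrm2, Tyms, Tk1, Dut, Ung), 3 copy chromatin (Uhrf1, Chaf1b, Slbp), and 4 act at entry into S phase and at the fork checkpoint (E2f1, Ccne1, Ccne2, Clspn).

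Replication begins when the origin recognition complex, CDC6 and CDT1 load the ring-shaped MCM2 to MCM7 complex onto DNA during G1, and geminin, the product of Gmnn, blocks reloading after S phase has begun. CDC45 and the GINS complex then join the ring to form the active helicase, after which polymerase alpha with primase starts each strand and polymerases epsilon and delta extend them on the PCNA clamp. Many of these genes are transcribed under E2F factors as cells pass from G1 into S phase, so their RNA is widely used as a sign of cycling cells, and macrophages of the newborn lung are known to divide in place.

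RNA came from the lungs of newborn C57BL/6 mice kept for 1.5 days either in room air (normoxia) or at an inspired oxygen fraction of 0.9 (hyperoxia). Pups were found within 6 hours of birth, litters were pooled, and pups were allotted to a condition at random. Flow sorting gave dendritic cells (MHCIIhi CD11chi), alveolar macrophages (SiglecFhi CD11chi), Ly6Chi monocytes or macrophages (Ly6Chi CD11clo) and Ly6Clo monocytes or macrophages (Ly6Clo CD11chi). Each population had 5 hyperoxia libraries, and normoxia had 6 libraries in each population except for Ly6Clo cells, which had 5, for 43 libraries in all. The labels name 3 litters, 93, 100 and 108, each with libraries of both conditions in every population. In hyperoxia, litter 100 has 1 library per population and the others 2. The labels do not tie libraries to pups, so p-values measure the spread between libraries. Libraries of different populations may come from the same pups, and tests between populations treat them as separate.

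Library totals ranged from 551960 to 2403861 counts, and 5 libraries held fewer than 1000000, of which 4 were of alveolar macrophages. These 4 held 799097, 849561 and 551960 counts in hyperoxia and 570769 in normoxia. The mean total of alveolar macrophage libraries was 986411 in hyperoxia and 1234956 in normoxia. The summed level of 10 dendritic cell markers was 4174 to 6158 CPM (the count scaled to 1000000 counts per library) in normoxic dendritic cells and at most 1150 in the other normoxic populations. That of 10 alveolar macrophage markers was 2496 to 2949 CPM in normoxic alveolar macrophages, 1311 to 2134 CPM in normoxic Ly6Clo cells and at most 855 CPM elsewhere in normoxia. The Ly6Clo gate thus had a high sum of these marker RNAs. Levels of single markers are not given here. In the hyperoxia comparison, 10 of the 10 could be tested in alveolar macrophages and 8 in Ly6Clo cells. Carry-over of alveolar macrophages into this gate was not tested. Fen1 had 0 to 15 counts in any library and was tested in no comparison. Of its exonic bases, 84.2% lie in other annotated genes, as do 67.3% of those of Gins2, and reads of such genes cannot be told apart because the library kit does not mark strand.

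Hyperoxic alveolar macrophages carried less replication RNA than normoxic ones within each litter. Per library, the mean log2 CPM over the 37 genes was 6.01 and 6.15 in the normoxic libraries of litter 93, 5.40 and 5.76 in litter 100, and 5.66 and 5.74 in litter 108. In the hyperoxic libraries it was 5.61 and 5.57 in litter 93, 3.95 in litter 100, and 4.88 and 4.51 in litter 108. Every hyperoxic library was below both normoxic libraries of its own litter, but the groups overlapped across litters, since the hyperoxic libraries of litter 93 were above the lowest normoxic library. The group means were 5.79 ± 0.27 (SD, n = 6) in normoxia and 4.90 ± 0.71 (SD, n = 5) in hyperoxia, and the difference within litters was −0.49 in litter 93, −1.63 in litter 100 and −1.01 in litter 108. The summed level of the genes was 2787 ± 444 CPM (SD, n = 6) in normoxia and 1736 ± 731 CPM (SD, n = 5) in hyperoxia. In these bulk libraries, fewer cells in S phase and less of this RNA per cell cannot be told apart.

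**Figure D1:**
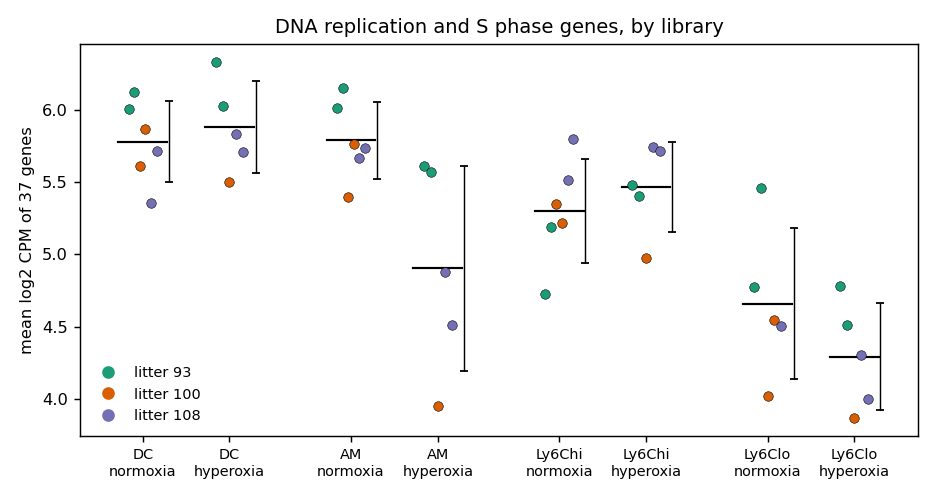
Mean log2 CPM over the 37 replication genes in each library (points, by litter), with the mean and SD of each of the 8 groups. In alveolar macrophages the hyperoxic libraries run from 3.95 to 5.61 and the normoxic ones from 5.40 to 6.15; in dendritic cells and Ly6Chi cells the conditions overlap widely.

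Gene by gene, the direction was shared but no gene passed the test. Of the 35 genes tested in alveolar macrophages (all but Fen1 and Ung), 35 had a negative log2 fold change, with a median of −0.88 against −0.01 over the 9986 genes tested, of which 51.2% were lower. By edgeR's quasi-likelihood test with Benjamini-Hochberg adjustment, 0 of 35 had an adjusted p under 0.05 (0.11% of all genes tested, each of them higher), whereas 27 were lower at an unadjusted p under 0.05, against 4.68% of all genes. The smallest adjusted p was 0.0533. Calls depended on the method: DESeq2 called 13 of the genes, each lower, and limma-voom called 0. The share of all genes that DESeq2 called is not given here, so the 13 have no background to be read against. A total of 32 genes were lower in hyperoxia in all 3 litters, against 17.5% of all genes tested. Lig1, Mcm5 and Rpa2 were below every normoxic library in every hyperoxic library, against 0.431% of all genes.

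**Figure D2:**
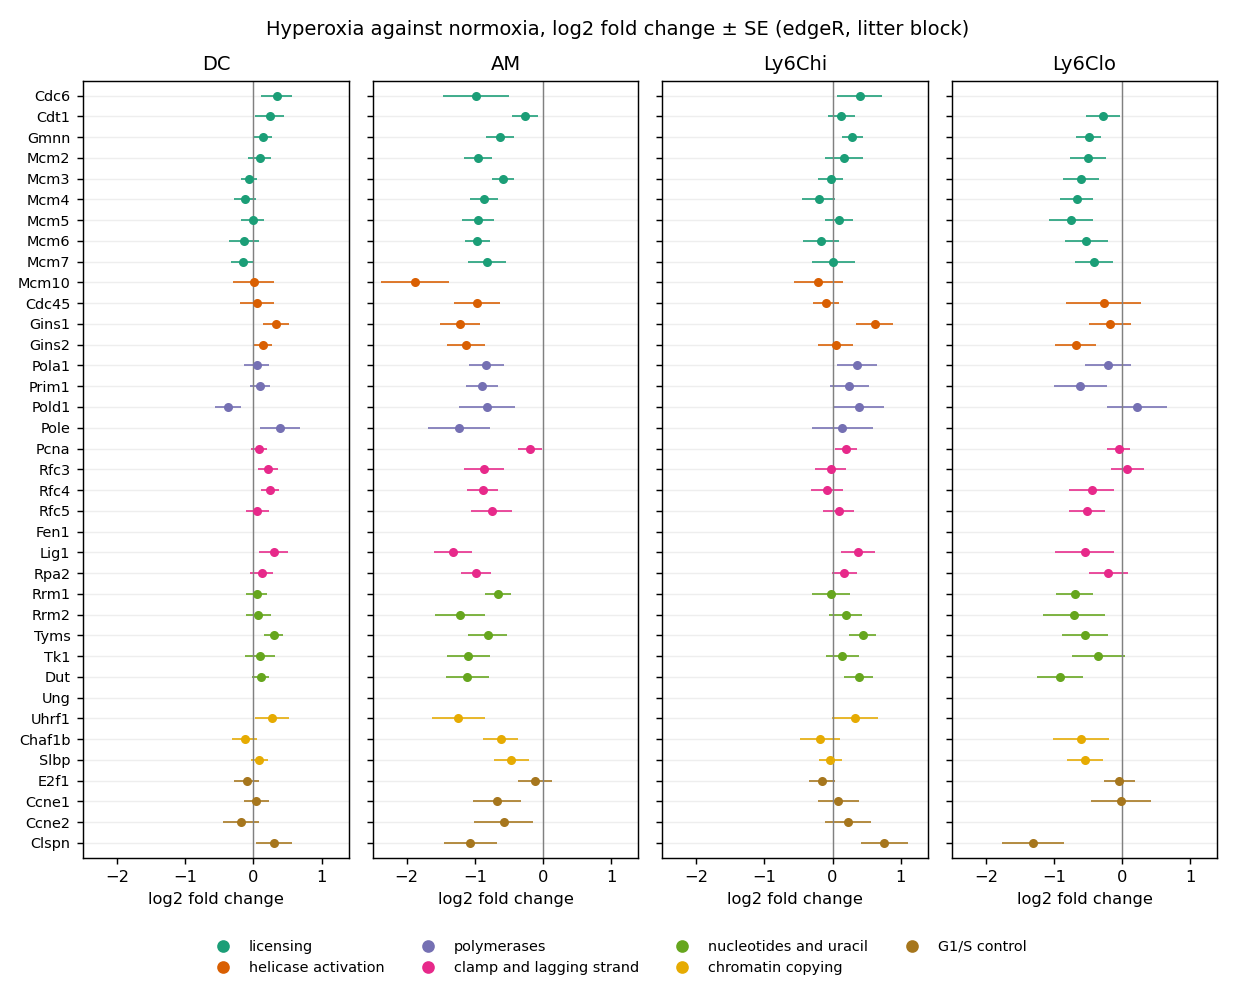
Log2 fold change of hyperoxia against normoxia for each replication gene tested (rows, grouped by role) in the 4 populations, from edgeR fits with litter as a block; bars are 1 standard error. All 35 alveolar macrophage values lie below 0, and dendritic cell values lie between −0.37 and 0.39.

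Among the licensing genes, 9 of 9 were lower in hyperoxic alveolar macrophages (median log2 fold change −0.87, range −0.98 to −0.27), and 7 had an unadjusted p under 0.05. Mcm6, 1 of the 6 subunits of the MCM ring, had the smallest p of all the replication genes. Its level was 86.3, 122 and 160.2 CPM (lowest, median and highest) in the 6 normoxic libraries, against 87.1 and 96.7 CPM in litter 93, 34.3 CPM in litter 100, and 70.2 and 51.4 CPM in litter 108 in hyperoxia. The libraries of litter 93 overlapped the normoxic range at its lower end, and the other 3 lay below it. The log2 fold change of Mcm6 was −0.96 ± 0.18 (SE; edgeR adjusted p = 0.0533), and its adjusted p ranged from 0.000954 to 0.668 over the 22 alternatives, 5 of which called it. The other subunits had log2 fold changes of −0.95 ± 0.20 for Mcm2, −0.59 ± 0.16 for Mcm3, −0.87 ± 0.21 for Mcm4, −0.95 ± 0.23 for Mcm5 and −0.83 ± 0.28 for Mcm7. The 6 subunits thus ran from −0.96 to −0.59, and differences among them were not tested. Cdt1, the loader that is degraded in S phase, had the smallest difference of the licensing genes (−0.27 ± 0.19).

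The 4 helicase activation genes had the most negative median of the role groups (−1.17), and 4 of 4 had an unadjusted p under 0.05. Mcm10, which aids the firing of loaded helicases, had a log2 fold change of −1.88 ± 0.50, the most negative of all the genes. It was low throughout. Its normoxic libraries had 14.9, 25.8 and 37.2 CPM (lowest, median and highest), and the hyperoxic ones 10.7 and 17.1 CPM in litter 93, 0 in litter 100, and 5.26 and 3.06 CPM in litter 108. The library at 0 held 551960 counts, the smallest total of all, and a count of 0 there allows up to 5.44 CPM, counting error only. The GINS subunit genes followed, with −1.22 ± 0.30 for Gins1 and −1.13 ± 0.28 for Gins2.

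At the clamp and on the lagging strand, 6 of 6 tested genes were lower (median −0.88) and 5 had an unadjusted p under 0.05. Lig1, the ligase that joins Okazaki fragments, had 58.0, 72.1 and 85.5 CPM (lowest, median and highest) in normoxia. In hyperoxia it had 52.3 and 50.2 CPM in litter 93, 9.53 CPM in litter 100, and 15.8 and 33.6 CPM in litter 108. No hyperoxic library reached the normoxic range. The log2 fold change of Lig1 was −1.32 ± 0.28, a level 2.50-fold lower (edgeR adjusted p = 0.0993). Rpa2, a subunit of the protein that coats single-stranded DNA, had −0.98 ± 0.22 (edgeR adjusted p = 0.159), and Rfc3, Rfc4 and Rfc5 of the clamp loader ranged from −0.88 to −0.75. Pcna, the clamp itself, differed little (−0.19 ± 0.18). It had 93.7, 101 and 125 CPM (lowest, median and highest) in normoxia, and in hyperoxia 135 and 129 CPM in litter 93, 61.0 CPM in litter 100, and 85.1 and 73.4 CPM in litter 108. Pcna was thus above the normoxic range in litter 93 and below it in the other litters.

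**Figure D3:**
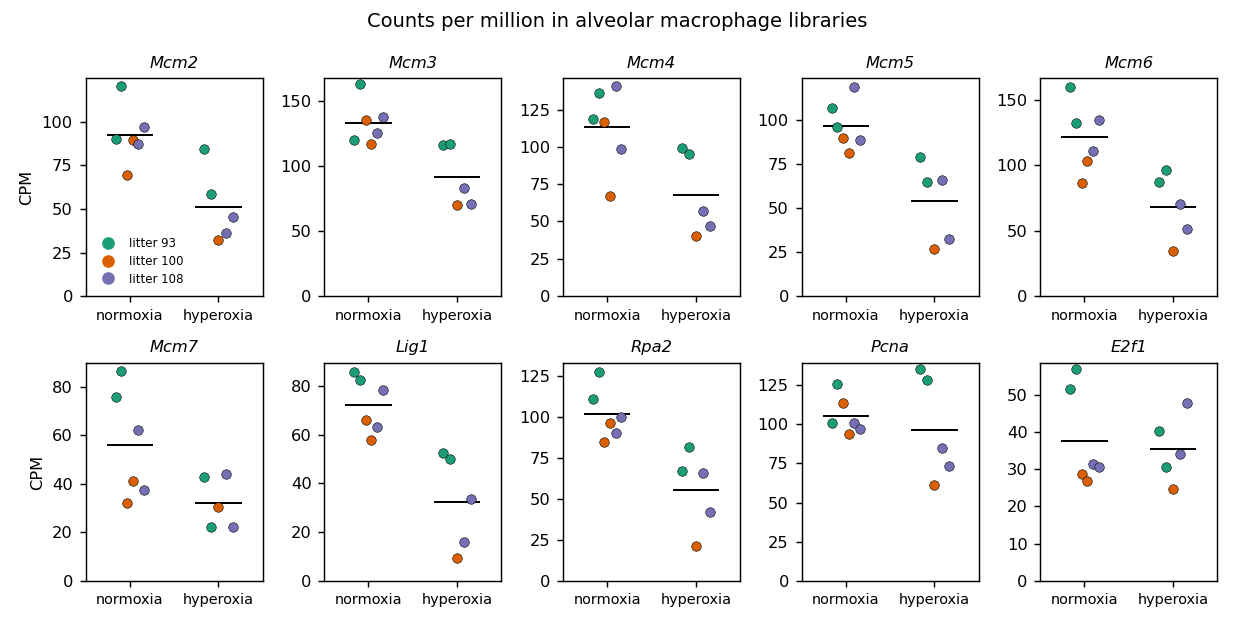
CPM of Mcm2 to Mcm7, Lig1, Rpa2, Pcna and E2f1 in each alveolar macrophage library (points, coloured by litter), by oxygen condition, with the group mean as a bar. Lig1 separates the conditions, Mcm6 overlaps only in the hyperoxic libraries of litter 93, and Pcna is higher in those libraries than in any normoxic library.

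The 5 nucleotide genes tested all had an unadjusted p under 0.05 (median −1.09). The values were −1.22 for Rrm2 and −0.66 for Rrm1, which encode the subunits of ribonucleotide reductase, −1.11 for Dut, which destroys dUTP, −1.09 for Tk1 and −0.81 for Tyms, which make thymidylate. The 4 polymerase genes were between −1.23 (Pole) and −0.83 (Pold1), 3 of them with an unadjusted p under 0.05. Of the chromatin genes, Uhrf1, which brings the maintenance DNA methyltransferase to the fork, was at −1.24, Chaf1b of the histone chaperone CAF-1 at −0.62 and Slbp, which binds histone messenger RNA, at −0.47. Of the G1/S genes, Clspn, a checkpoint adaptor at the fork, was at −1.07 (unadjusted p = 0.0145), the cyclin E genes Ccne1 and Ccne2 at −0.67 and −0.58, and the transcription factor E2f1 at −0.12 ± 0.25.

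The 3 exceptions to a lower level in every litter were Pcna and Ccne2, each at 0.23 in litter 93, and E2f1 at 0.38 in litter 108, on the log2 scale. Litter 100 had the most negative within-litter difference of the 3 litters in each of the 7 role groups, from −1.02 for licensing to −2.90 for helicase activation. Litter 93 had the least negative, from −0.63 to −0.30. The hyperoxic library of litter 100 was also the one with the fewest counts, and it was the lowest hyperoxic library for these genes in each of the 4 populations, where it also had the smallest total of its group. The part of depth in this was not tested. With litter 100 left out, the median over the 35 genes in alveolar macrophages was −0.79. In the litter by oxygen test, 0 genes had an adjusted p under 0.05 in alveolar macrophages by edgeR (0% of all genes), and 9 had an unadjusted p under 0.05, against 5.71% of all genes. DESeq2 called 1.

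**Figure D4:**
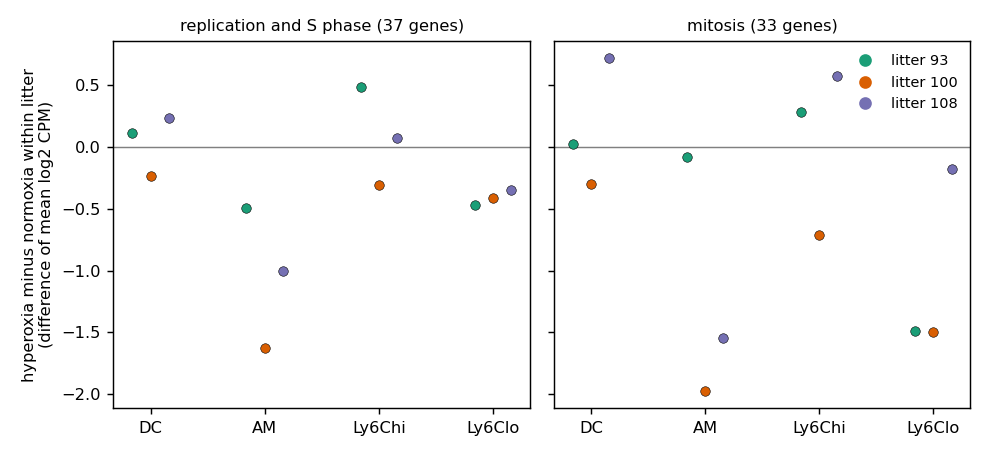
Difference of hyperoxia minus normoxia in mean log2 CPM within each litter, for the replication genes and for mitosis genes, by population. In alveolar macrophages the replication genes are below 0 in the 3 litters (−0.49, −1.63 and −1.01), and the mitosis genes are near 0 in litter 93 (−0.08) and lower in litters 100 and 108.

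Genes outside the 37 gave the following values in alveolar macrophages. Of 91 other genes of the replication and G1/S pathway, 81 were tested, with a median log2 fold change of −0.37. At an unadjusted p under 0.05, 27 were lower and 3 higher, 37% in all, against 9.91% of all genes. Of the 81, 1 was called: Cdkn1a, whose product p21 blocks cyclin-dependent kinases, went up from 108 ± 25.7 CPM (SD, n = 6) to 269 ± 73.2 CPM (SD, n = 5), with a log2 fold change of 1.37 ± 0.17 (edgeR adjusted p = 0.00184). Of 33 mitosis genes, 33 were lower (median −0.93) and 21 had an unadjusted p under 0.05. In litter 93, 18 of the 33 mitosis genes were lower, as were 33 of the 35 replication genes tested. Of other cell types, the 8 epithelial markers were also lower in hyperoxia (median −1.12, 1 at an unadjusted p under 0.05), with summed levels of 353 to 2876 CPM in normoxia and 113 to 2137 CPM in hyperoxia. The 6 classical monocyte markers tested were higher (7 summed to 530 to 981 CPM in normoxia and 714 to 1127 CPM in hyperoxia). Interstitial macrophage markers were higher (5 of 5 tested, median 0.57), as were neutrophil markers (2 of 2, median 0.92), and erythroid markers were lower (4 of 4, median −0.55). The part of these in the lower replication RNA was not tested. Of the 10 alveolar macrophage markers, 6 were higher and 4 lower (−1.52 to 0.65, median 0.05), with 1 higher and 3 lower at an unadjusted p under 0.05.

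The promoters of the replication genes often held a canonical E2F motif. In RefSeq promoters of build GRCm38.p6, from 250 bases before to 50 after the transcription start, TTTCCCGC, TTTGGCGC, TTTCGCGC and TTTGCCGC were searched on both strands. These windows were found for 31 of the 37 genes, and 12 of them (38.7%) held a match, against 704 of 27025 genes (2.60%), 20 of 70 other genes of the replication and G1/S pathway (28.6%) and 1 of 28 mitosis genes (3.57%). Matches were found in 6 of 7 licensing genes (Cdc6, Cdt1, Mcm3, Mcm5, Mcm6, Mcm7) and in Clspn, Lig1, Pola1, Pold1, Rfc3 and Uhrf1, and in 0 of 6 nucleotide genes. Ccne2, Gins1, Gins2, Gmnn, Mcm4 and Pole had no entry. A match describes the letters only. Of the 5 genes with the smallest p in alveolar macrophages, Mcm6 and Lig1 held matches and are shown, with Mcm5 and Mcm7 added after their matches were seen, since they encode partners of Mcm6 in the ring. Capitals mark the matches, on either strand, and adjoining matches overlap in the first run of Mcm6 and in Mcm5. The stretches are chr1:128359706-128359955 on the minus strand for Mcm6, from 250 bases to 1 base before the start, chr7:13278842-13278871 on the plus strand for Lig1, from 17 to 46 bases after it, chr8:75109331-75109392 on the plus strand for Mcm5, and chr5:138172016-138172073 on the minus strand for Mcm7.
Mcm6: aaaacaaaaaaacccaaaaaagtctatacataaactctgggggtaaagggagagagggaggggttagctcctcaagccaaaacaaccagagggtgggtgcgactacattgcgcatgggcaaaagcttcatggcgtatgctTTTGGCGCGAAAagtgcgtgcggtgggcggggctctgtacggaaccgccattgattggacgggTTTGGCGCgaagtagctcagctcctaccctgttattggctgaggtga
Lig1: gccaaagtgcGCGCGAAAtctgtgtggcgc
Mcm5: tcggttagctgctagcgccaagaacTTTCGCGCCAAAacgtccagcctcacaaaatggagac
Mcm7: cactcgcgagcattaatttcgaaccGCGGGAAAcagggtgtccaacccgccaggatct

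The stretches differ in length, and Mcm7 had a further match from 17 to 24 bases after the start, outside the stretch shown.

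Ly6Clo cells were the other population with mostly negative values, though fewer of them had small p-values. The mean log2 CPM over the 37 genes was 4.66 ± 0.52 (SD, n = 5) in normoxia and 4.29 ± 0.37 (SD, n = 5) in hyperoxia, and the within-litter difference was −0.47, −0.41 and −0.35 in litters 93, 100 and 108. Of 30 genes tested, 28 had a negative log2 fold change (median −0.51 against −0.01 over all genes), and the others were Rfc3 (0.08) and Pold1 (0.22). By edgeR, 0 had an adjusted p under 0.05 (0% of 10188 genes), as by DESeq2 and limma-voom, and 8 were lower at an unadjusted p under 0.05, against 2.34% of all genes. Without normoxia replicate 2 of these cells that count was 2. A total of 13 were lower in all 3 litters, against 13.3% of all genes, and Gmnn was below every normoxic library in every hyperoxic library (0.393% of all genes). Ccne2, Cdc6, Fen1, Mcm10, Pole, Uhrf1 and Ung were too low to be tested there.

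Clspn had the smallest p in Ly6Clo cells. Its level was 23.4 and 22.7 CPM in litter 93, 12.6 and 11.0 CPM in litter 100 and 6.98 CPM in litter 108 in normoxia, and 16.1 and 6.58, 6.39, and 0.502 and 1.64 CPM in the same litters in hyperoxia. Its log2 fold change was −1.31 ± 0.46 (edgeR adjusted p = 0.860), and the groups overlapped across litters but not within them. Mcm4 had 48.7 and 58.7, 43.0 and 61.4, and 74.1 CPM in normoxia, and 45.2 and 50.2, 22.4, and 34.1 and 38.2 CPM in hyperoxia, in the same order of litters. Its log2 fold change was −0.66 ± 0.24 (edgeR adjusted p = 0.860). Only in litter 93 did the Mcm4 libraries of the conditions overlap. Dut (−0.91 ± 0.34), Gmnn (−0.49 ± 0.19) and Rrm1 (−0.70 ± 0.27) came next, at the same adjusted p. By role, nucleotide genes had a median of −0.70 and licensing genes of −0.51, with 8 of 8 tested licensing genes lower.

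Of the other pathway genes, 73 were tested in Ly6Clo cells, with 1 higher and 10 lower at an unadjusted p under 0.05. Together they were 15.1% of those tested, against 5.3% of all genes. Cdkn1a had a log2 fold change of 0.79 ± 0.19 and the S phase and mitotic cyclin gene Ccna2 of −1.38 ± 0.41, neither called by edgeR. Of the mitosis genes, 28 of 28 tested were lower (median −1.04). Non-classical monocyte markers moved the same way. All 7 were lower in hyperoxia, with summed levels of 467 to 1345 CPM in normoxia and 107 to 501 CPM in hyperoxia. B cell markers summed to 163 to 303 CPM in normoxia and 38.4 to 176 CPM in hyperoxia. Interstitial macrophage markers (7 of 7 tested, median −0.32) and dendritic cell markers (4 of 4, −0.54) were lower as well. Of 6 classical monocyte markers tested, 5 were lower and 1 was higher, at 1.77 (median −0.46). At an unadjusted p under 0.05, 1 of these was lower and 1 higher. The part of these in the replication values was not tested.

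In Ly6Chi cells the replication genes were scattered around a small positive median. The mean log2 CPM was 5.30 ± 0.36 (SD, n = 6) in normoxia and 5.46 ± 0.31 (SD, n = 5) in hyperoxia, and the within-litter difference was 0.48 in litter 93, −0.31 in litter 100 and 0.07 in litter 108. Of 35 genes tested, 24 were higher (median 0.14 against −0.01 over all genes). By edgeR, DESeq2 and limma-voom, 0 had an adjusted p under 0.05 (0% of 10844 genes by edgeR). A total of 3 were higher at an unadjusted p under 0.05 by edgeR, against 2.86% of all genes. Without litter 93 the median was −0.05.

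Gins1, a subunit of the active helicase, had the smallest p in Ly6Chi cells (log2 fold change 0.62 ± 0.27, edgeR adjusted p = 0.758). It had 15.4, 28.5 and 49.9 CPM (lowest, median and highest) in normoxia, and 48.4 and 39.3, 37.7, and 40.5 and 59.8 CPM in litters 93, 100 and 108 in hyperoxia. The hyperoxic values lay in the upper part of the normoxic range or above it. Tyms, thymidylate synthase, had 25.6, 64.1 and 78.9 CPM (lowest, median and highest) in normoxia and 65.3 and 62.5, 66.0, and 73.6 and 84.3 CPM in hyperoxia (log2 fold change 0.44 ± 0.20). The 2 lowest Tyms values in normoxia, 25.6 and 35.3 CPM, were the libraries of litter 93, and the other values overlapped. Clspn (0.76 ± 0.34), Gmnn (0.29 ± 0.15) and Dut (0.38 ± 0.21) followed, at the same adjusted p. Of 83 other pathway genes tested, 5 were higher and 0 lower at an unadjusted p under 0.05 by edgeR. The 5 were 6.02% of those tested, against 5.45% of all genes in either direction and 310 of 10844 genes higher. Among the 5 was Cdkn1a at 0.93 ± 0.28 (edgeR adjusted p = 0.758). Of the mitosis genes, 25 of 33 were higher (median 0.14). Of other cell types, B cell markers were higher (4 of 4 tested, median 0.99, 3 at an unadjusted p under 0.05), with sums of 223 to 349 CPM in normoxia and 300.4 to 527 CPM in hyperoxia. Endothelial markers were lower (6 of 7, median −1.23, 2 at that p), with sums of 183 to 568 CPM and 9.66 to 336 CPM. Neutrophil and precursor markers were mostly higher (6 of 8 tested, median 0.38), with 2 higher and 0 lower at that p. Of 7 dendritic cell markers tested, 4 were higher and 3 lower (median 0.32), with 2 higher and 0 lower at that p. The part of these in the replication values was not tested.

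Dendritic cells differed least between conditions. The mean log2 CPM over the genes was 5.78 ± 0.28 (SD, n = 6) in normoxia and 5.88 ± 0.32 (SD, n = 5) in hyperoxia, and the within-litter difference was 0.11, −0.24 and 0.23 in litters 93, 100 and 108. Of 35 genes tested, 26 were higher, with a median log2 fold change of 0.08 against 0.00 over all genes, and values ran from −0.37 to 0.39. By edgeR, DESeq2 and limma-voom, 0 had an adjusted p under 0.05 (0% of 11274 genes by edgeR), and 1 was higher at an unadjusted p under 0.05 by edgeR, against 4.11% of all genes. That was Tyms (0.30 ± 0.14, edgeR adjusted p = 0.560), with 73.5, 105 and 123 CPM (lowest, median and highest) in normoxia and 164 and 121, 93.8, and 116 and 112 CPM in the hyperoxic libraries of litters 93, 100 and 108. Its conditions overlapped, with 1 hyperoxic library above the normoxic range.

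Pold1, the catalytic subunit of polymerase delta, had the most negative value in dendritic cells (−0.37 ± 0.19, edgeR adjusted p = 0.586). It had 36.9, 40.9 and 50.3 CPM (lowest, median and highest) in normoxia, and 37.6 and 44.9, 24.8, and 33.9 and 22.7 CPM in hyperoxia. The hyperoxic libraries of litters 100 and 108 were below the normoxic range and those of litter 93 inside it. Rfc4 (0.25 ± 0.13), Gins1 (0.34 ± 0.19) and Cdc6 (0.34 ± 0.23) came next by p. Of 87 other pathway genes tested, 5 were higher and 2 lower at an unadjusted p under 0.05. Together they were 8.05% of those tested, no more than the 8.85% of all genes. Rfc2 of the clamp loader was at 0.28 ± 0.11, the fork protection gene Timeless at −0.40 ± 0.17 and Cdkn1a at 0.40 ± 0.18, none called by edgeR. Of the mitosis genes, 29 of 33 were higher (median 0.28). Of the 10 dendritic cell markers, 6 were lower and 4 higher (−0.75 to 0.08). At an unadjusted p under 0.05, 4 of them were lower and 0 higher, against 4.75% of all genes lower. Of the 7 interstitial macrophage markers, 5 were higher and 2 lower (−0.31 to 0.40), with 3 higher and 0 lower at that p. Epithelial markers were lower (8 of 8, median −0.27) and neutrophil markers higher (6 of 6 tested, median 0.52). The part of these in the replication values was not tested.

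The difference of the hyperoxia effect between populations was then tested on all 43 libraries, in which 36 of the genes could be tested. The effect was more negative in alveolar macrophages than in dendritic cells for 36 of 36 genes (median difference 0.89, dendritic cells minus alveolar macrophages) and than in Ly6Chi cells for 36 of 36 (median difference −0.89, alveolar macrophages minus Ly6Chi cells). By edgeR, 0 genes had an adjusted p under 0.05 in either pair (0% and 0.0399% of 12529 genes), nor in the other 4 pairs (0% to 0.00798%) or the joint test (0%), and DESeq2 called 0 in each pair. At an unadjusted p under 0.05 there were 18 genes for dendritic cells against alveolar macrophages, against 2.98% of all genes in that direction. There were 21 for alveolar macrophages against Ly6Chi cells, against 3.69%. Against Ly6Clo cells the effect in alveolar macrophages was more negative for 33 of 36 genes (median −0.38), 5 of them at an unadjusted p under 0.05, against 1.75%. These pairs share the alveolar macrophage libraries. In the other pairs, 3 genes had a more negative effect in Ly6Clo than in dendritic cells at that p (2.25% of all genes), 5 in Ly6Clo than in Ly6Chi cells (2.94%), and 0 differed between dendritic and Ly6Chi cells (2.57%). In the joint test 12 genes had an unadjusted p under 0.05 (4.92% of all genes).

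Averaged over the 4 populations, 34 of 36 genes had a negative effect of hyperoxia (median −0.30), and 3 fell by edgeR (0.678% of all genes were called lower). They were Mcm4 (−0.48 ± 0.12, edgeR adjusted p = 0.0203), Mcm5 (−0.46 ± 0.13, 0.0473) and Mcm10 (−0.80 ± 0.24, 0.0494). DESeq2 called 4 genes, and its share of all genes is not given here. The sign of the average was not shared by each population. Fitted alone, alveolar macrophages had 35 of 35 genes lower and Ly6Clo cells 28 of 30. Dendritic cells had 26 of 35 higher and Ly6Chi cells 24 of 35. The shares of all genes by direction are not given here for the average or for the pairs above. The edgeR count of 3 genes rested on single libraries. It was 0 without hyperoxia replicate 3 of Ly6Chi cells and 7 without normoxia replicate 1 of those cells, 5 without hyperoxia replicate 4 of them, and leaving out 21 of the 43 libraries moved it by over 1.5 times, to 1 in the other 18 cases. Without the litter term it was 0.

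In normoxia, replication RNA was lowest in Ly6Clo cells. Of the 37 genes, 19 had their highest normoxic mean in dendritic cells, 16 in alveolar macrophages, 2 in Ly6Chi cells and 0 in Ly6Clo cells, and 27 had their lowest mean in Ly6Clo cells. The order of the library means was alveolar macrophages (5.79), dendritic cells (5.78), Ly6Chi cells (5.30) and Ly6Clo cells (4.66). The first pair differed by far less than its spread, with normoxic ranges of 5.40 to 6.15 and 5.36 to 6.12. Gene by gene, the median log2 fold change of dendritic cells against alveolar macrophages was 0.04, and −0.41 with the number of genes detected per library as a covariate. Across populations, 33 of 36 genes differed in the joint edgeR test, against 62.4% of 11979 genes, the others being Chaf1b, Lig1 and Slbp.

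Dendritic cells and alveolar macrophages exceeded Ly6Clo cells for 25 of 36 and 27 of 36 genes by edgeR, against 11.7% and 7.28% of all genes called in that direction, and 0 genes were lower. With the number of genes detected per library as a covariate, the counts were 9 and 28. For the normoxic pairs, the shares of all genes called with this covariate or without single libraries are not given here. In dendritic cells against Ly6Clo cells the largest log2 fold changes were those of Pold1 (2.28 ± 0.36), Cdc6 (2.09 ± 0.38) and Pole (1.95 ± 0.53). Alveolar macrophages against Ly6Clo cells had Ung (2.56 ± 0.68), the uracil glycosylase, Mcm10 (2.17 ± 0.42) and Uhrf1 (2.15 ± 0.43). Ly6Chi cells exceeded Ly6Clo cells for 12 genes (15.7% of all genes in that direction), led by Cdc45 (2.07 ± 0.46), Cdc6 (1.73 ± 0.38) and Ccne1 (1.67 ± 0.39). Without normoxia replicate 3 of Ly6Clo cells that count was 6, without normoxia replicate 6 of Ly6Chi cells 7, and without normoxia replicate 2 of Ly6Clo cells 19.

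Alveolar macrophages exceeded Ly6Chi cells for 13 genes and were lower for 1 (24% and 28.3% of all genes, 52.2% in all), with the largest differences in Ung (4.52 ± 0.72), Gins1 (1.56 ± 0.25) and Uhrf1 (1.31 ± 0.38). Ung rests on few reads, with 71 counts summed over the normoxic alveolar macrophage libraries and 4 over the normoxic Ly6Chi libraries. Dendritic cells exceeded Ly6Chi cells for 5 genes and were lower for 1 (14.2% and 14.4% of all genes, 28.7% in all), led by Pold1 (1.81 ± 0.32), Pola1 (1.48 ± 0.30) and Tk1 (1.02 ± 0.24), and 1 gene was called in all with that covariate. Dendritic cells exceeded alveolar macrophages for 1 gene and were lower for 5 (27.5% and 22.4% of all genes, 49.9% in all), the largest differences being Ung (−2.60 ± 0.61), Gins1 (−1.28 ± 0.25) and Gmnn (−0.95 ± 0.15), and 2 genes were called in all with the covariate. In the pairs without Ly6Clo cells the share of replication genes called, taken over both directions, was below the share of all genes.

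Gmnn and Gins1 had the smallest p in the joint normoxic test (edgeR adjusted p = 6.91e-07 and 4.93e-06). Gmnn had 186, 205 and 281 CPM (lowest, median and highest) in alveolar macrophages, 84.0, 123 and 132 CPM in dendritic cells, 84.0, 105 and 154 CPM in Ly6Chi cells, and 111, 134, 102, 110 and 105 CPM in Ly6Clo cells. The alveolar macrophage libraries were above all others, and the other populations overlapped. Gins1 had 67.7, 93.5 and 105 CPM in alveolar macrophages, 25.6, 37.3 and 47.8 CPM in dendritic cells, 15.4, 28.5 and 49.9 CPM in Ly6Chi cells, and 37.6, 52.6, 9.26, 23.4 and 27.0 CPM in Ly6Clo cells. Here too only alveolar macrophages stood apart.

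**Figure D5:**
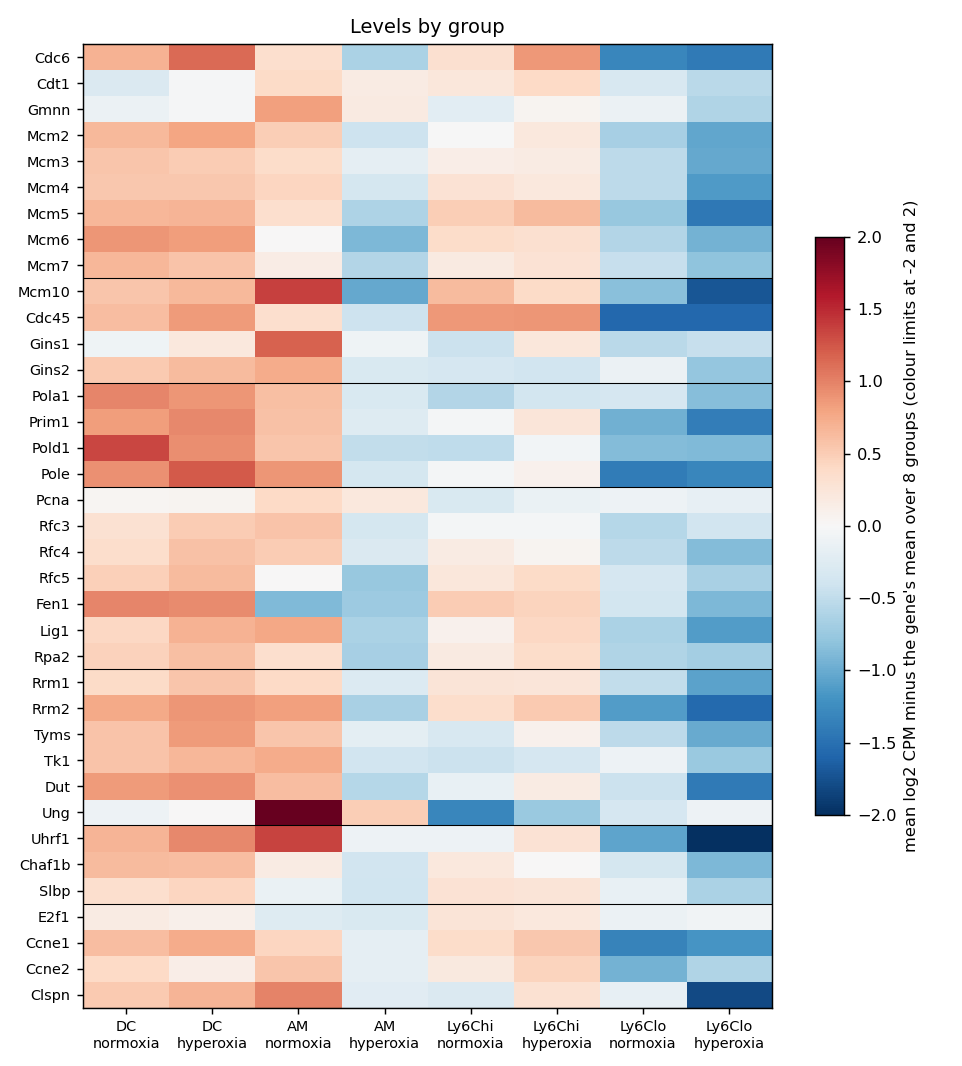
Mean log2 CPM of each replication gene in the 8 population by oxygen groups, as the difference from the gene's mean over the groups, with genes ordered by role and colours capped at −2 and 2. The Ly6Clo columns are the lowest for most genes, and the hyperoxic alveolar macrophage column is lower than the normoxic one for most rows.

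The 6 subunits occur in equal numbers in the MCM ring, and their RNA differed in level per annotated exonic length. In normoxic alveolar macrophages the mean level in CPM per exonic kilobase was 35.5 ± 4.45 for Mcm3, 31.5 ± 7.53 for Mcm4, 26.0 ± 5.67 for Mcm6, 24.2 ± 3.46 for Mcm5, 13.3 ± 2.38 for Mcm2 and 12.6 ± 5.06 for Mcm7 (SD, n = 6). Mcm2 and Mcm7 were thus the lowest per exonic length. The annotated exonic length was 6956 bases for Mcm2, against 3993 for Mcm5 and 3589 for Mcm4, so the place of Mcm2 rests partly on its length. Before division, Mcm2 and Mcm5 overlapped in these libraries, at 69.4 to 120 CPM and 80.9 to 119 CPM. How much of each length is transcribed in these cells was not tested. In hyperoxic alveolar macrophages the means were 24.5 ± 6.30 for Mcm3, 18.9 ± 7.71 for Mcm4, 14.6 ± 5.47 for Mcm6, 13.5 ± 5.73 for Mcm5, 7.38 ± 3.03 for Mcm2 and 7.29 ± 2.42 for Mcm7 (SD, n = 5), in the same order. Normoxic dendritic cells differed in the order, with Mcm6 highest at 49.1 CPM per exonic kilobase, ahead of Mcm3 at 40.6. Mcm6 also led in Ly6Chi cells (36.6), and Mcm3 led in Ly6Clo cells (20.2, with Mcm6 at 18.8). Of the Mcm7 exonic bases, 12.6% lie in other annotated genes, among them the microRNA genes Mir25 and Mir93.

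The litter by oxygen test was also run in the other populations. There, 0 genes had an adjusted p under 0.05 by edgeR in dendritic cells, Ly6Chi cells or Ly6Clo cells (0.0266%, 0% and 0% of all genes). DESeq2 called 2 in Ly6Chi cells, and its share of all genes is not given here. At an unadjusted p under 0.05 by edgeR there were 3 of 35 genes in dendritic cells, 10 of 35 in Ly6Chi cells and 1 of 30 in Ly6Clo cells. The shares of all genes were 9.72%, 15.2% and 18.5%. The 10 genes in Ly6Chi cells are 28.6% of those tested, above the share of all genes, and the 9 in alveolar macrophages are 25.7%.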

How the data were processed

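RNA was measured in 43 bulk libraries made from sorted cells with SMART-Seq v4 and Nextera XT, per the labels' protocols. The authors deposited 1 table of whole-number counts per Ensembl gene, with no normalization. The tools named in the submitters' processing notes are FastQC, Picard, SAMtools, HTSeq 0.4.1 and TopHat, and the build named there is NCBIM37. Their roles and the annotation are not given in the sources used here. The kits carry no molecular identifiers, so PCR copies may be counted, and counting error is not the whole error.

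Symbols, given to 32919 of 37991 genes, and exonic lengths came from a later GRCm38 annotation. Genes without a symbol (0.828% of counts) were tested but not named. Promoters came from RefSeq (GRCm38.p6).

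Groups and litters came from the labels. The deposited counts entered edgeR 4.0.16 (R 4.3.3): filterByExpr (minimum count 10, minimum total 15), TMM scaling, robust quasi-likelihood F tests, litter as an additive term, and Benjamini-Hochberg adjustment over all genes tested, with a gene called at an adjusted p under 0.05. Each population was fitted alone for hyperoxia and for litter by oxygen. Normoxic populations were fitted together, and all libraries for the difference between populations. A prior count of 1 entered each log2 CPM value. Scripts were tested on simulated counts. DESeq2 1.42.0, limma 3.58.1 (voom), no filter, no litter term, a prior count of 0.25, a correction for a limit on counts per exonic base, a covariate for genes detected, and leaving out small libraries, litters or single libraries were the alternatives. Scaling by library totals in place of TMM was added after seeing the data. Plots were made in matplotlib 3.10.9 under Python 3.11.15.

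The 37 genes and all gene lists were chosen with earlier results of these data known. Genes were named by rule: called genes or else the 5 with the smallest p in each hyperoxia comparison, the 3 largest called differences in each normoxic pair, Mcm2 to Mcm7, and Cdkn1a with the other pathway genes called or else the 2 with the smallest p. Values by library were given for the 2 smallest p in each comparison, and those of Mcm10 and Pcna were added after the data were seen. A pathway gene that this rule selects in Ly6Chi cells is not reported here.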

Additional observations from a re-analysis of the deposited data

How the results depend on the processing

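The median over the replication genes in alveolar macrophages was negative under each alternative, from −1.21 without litter 93 to −0.79 without hyperoxia replicate 3, and of the 41 gene results recomputed 0 changed sign. Of these results under single alternatives, 1009 kept their side of the threshold, 65 lost a call and 13 gained one. Calls in alveolar macrophages did vary: 13 with DESeq2, 20 with no filter, 1 with library totals in place of TMM, and 0 to 1 with single libraries left out (1 without normoxia or hyperoxia replicate 4), against 0. The shares of all genes called under the alternatives are not given here. Genes lower in alveolar macrophages at an unadjusted p under 0.05 numbered 17 without litter 108, against 27. For the effect averaged over populations, 9 genes were called with no filter, 1 without the libraries under 1000000 counts and 0 to 7 without single libraries, against 3. Without a filter, the difference of the effect between populations had 3 calls for dendritic cells against alveolar macrophages, 5 for alveolar macrophages against Ly6Chi cells, 1 for Ly6Chi against Ly6Clo cells and 7 jointly, against 0, and that between litters had 2 in alveolar macrophages and 4 in Ly6Chi cells. DESeq2 gave 1 and 2 there.

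With genes detected per library as a covariate, normoxic calls were 2 for dendritic cells against alveolar macrophages (median −0.41), 1 against Ly6Chi cells and 9 against Ly6Clo cells. Without single libraries, Ly6Chi against Ly6Clo cells gave 6 to 19.

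Replicate numbers follow the deposit order and pair nothing, whereas the labels give the litter, used as the block. With no replicate block of any kind, 0 genes were called for the averaged effect. Genes at an unadjusted p under 0.05 without the block were 0 higher in dendritic cells, 1 higher in Ly6Chi cells and 2 lower in Ly6Clo cells, against 1, 3 and 8.

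Other counts at an unadjusted p under 0.05 moved too. In dendritic cells they were 0 with no filter, with library totals or without litter 108, 2 without litter 93, and 0 to 3 without single libraries. In Ly6Chi cells they were 0 with library totals or without litter 93, 1 with the detected-gene covariate or voom, and 0 to 4 without single libraries. In Ly6Clo cells they were 5 without small libraries, litter 100 or litter 108, 2 with the covariate or without litter 93, and 2 to 10 without single libraries (4 without hyperoxia replicate 1, and 5 without hyperoxia replicate 3 or 5 or normoxia replicate 5). The litter test had 1 in dendritic cells with DESeq2 and 4 in Ly6Clo cells with no filter, against 3 and 1. The causes were not tested. The highest count of a replication gene in any library was 702, which limits the precision of single genes.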
